A study of Mus musculus with 19 samples.

Results

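The regions described here are 2448 ATAC-seq peaks that gained accessibility within 24 h of astrocyte differentiation and kept it for 1 week, out of 90154 peaks in the deposited table (2.72%). They were chosen by their measured values. A peak was taken when its mean normalised read count at 24 h, at 72 h and at 1 week was each at least 4 times its mean in the starting cells and its mean at 24 h was at least 50. The gain over the starting cells is therefore how they were found, and their values against those cells are given as a description, with no test.

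ATAC-seq marks open chromatin with a transposase that inserts sequencing adapters where DNA is exposed. The starting cells were neurospheres (NSPs), floating cultures of neural stem and progenitor cells from the ventricular zone of C57BL/6J mouse embryos at day 14, kept in medium with EGF at 20 ng/ml (3 libraries). Differentiation followed on coated plates in medium with 10% fetal bovine serum and no added EGF, for 24 h (3 libraries), 72 h (3) or 1 week (4). Parallel cells received tumor necrosis factor (TNF, 50 ng/ml), an inflammatory cytokine, for 24 h (3 libraries) or 72 h (3). All cells were wild type, each primary culture came from a single brain, and which libraries came from the same culture is not given, so the p-values below measure only the spread between these samples. In such mixed cultures, fewer cells with an open region and less opening per cell cannot be told apart.

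A progenitor that leaves the cell cycle and becomes an astrocyte changes its enhancers, short regulatory regions that often lie far from the genes they act on. Transcription factors of the NFI family, Sox9 and STAT3 are known for their part in astrocyte formation. AP-1, the Fos and Jun dimers, and TEAD, the DNA-binding partner of YAP, are known to act at enhancers in cells that attach, spread and meet serum. Which factors occupied the peaks was not measured.

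Sequences were read only where a peak of this set overlapped a RefSeq promoter window, since no sequence of the peaks themselves was read. Of the 32851 promoter windows in the table, 24 were overlapped by 21 of the 2448 peaks, at 21 genes. These are 0.858% of the set, against 12.0% of all tested peaks. In the 250 bases upstream of the start, the AP-1 letters TGANTCA were present in 4 of the 24 windows (16.7%), against 4.31% of the 13324 windows overlapped by any peak and 6.75% of all windows. The TEAD letters GGAATG were present in 12 of 24 (50%, at 10 genes), against 10.5% and 12.6%. The other letters searched were TTGGCA for NFI (25.0% of the 24 windows, 10.2% of those over any peak), TTCNNNGAA for STAT (12.5% and 5.73%), GGG, any 5 bases and CC for NF-kB (12.5% and 62.3%), TGTGGTT for RUNX (8.33% and 2.84%) and ACAAAG for SOX (33.3% and 12.1%). Some genes had more than 1 window, and by gene the NFI letters were present at 5 of the 21 and the SOX letters at 6. Both strands were searched throughout, and no AP-1 match shared a base with a TEAD match. A peak often covered only part of a window, and a match lay wholly inside the peak in 2 of the 4 windows with AP-1 letters and in 7 of the 12 with TEAD letters. The windows were also poorer in GC, with a median of 45.6% against 60.8% for windows over any peak and 52.4% for all windows, and what part base composition had in these shares was not tested.

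The 4 windows with AP-1 letters, 1 with 2 TEAD matches and 1 with no AP-1 or TEAD match that belongs to the peak with the fewest NSP reads are shown, as they let the matches be seen beside the values. The first 5 were picked after their matches had been seen. Each gives the 250 bases before the gene's start, 5′ to 3′ on the gene's strand (RefSeq, GRCm38.p6), with AP-1 or TEAD matches of either strand in capitals. Cntf encodes ciliary neurotrophic factor, a cytokine that drives progenitors towards astrocytes, and the other 5 are predicted or uncharacterised transcripts.

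Cntf: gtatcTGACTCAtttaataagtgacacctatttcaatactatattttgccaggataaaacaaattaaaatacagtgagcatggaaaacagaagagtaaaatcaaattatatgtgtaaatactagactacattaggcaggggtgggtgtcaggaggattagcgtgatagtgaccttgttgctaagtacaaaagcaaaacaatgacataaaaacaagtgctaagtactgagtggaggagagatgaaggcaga

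Gm5546: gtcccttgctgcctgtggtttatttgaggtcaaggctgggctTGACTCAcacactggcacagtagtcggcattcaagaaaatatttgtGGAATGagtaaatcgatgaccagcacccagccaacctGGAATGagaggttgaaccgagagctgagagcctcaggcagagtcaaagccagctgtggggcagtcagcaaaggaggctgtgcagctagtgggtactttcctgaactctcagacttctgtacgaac

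Gm29854: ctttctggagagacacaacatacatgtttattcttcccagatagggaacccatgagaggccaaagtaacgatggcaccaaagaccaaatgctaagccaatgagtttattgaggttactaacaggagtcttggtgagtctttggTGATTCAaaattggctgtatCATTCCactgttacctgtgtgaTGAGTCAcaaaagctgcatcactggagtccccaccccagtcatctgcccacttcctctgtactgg

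Gm31880: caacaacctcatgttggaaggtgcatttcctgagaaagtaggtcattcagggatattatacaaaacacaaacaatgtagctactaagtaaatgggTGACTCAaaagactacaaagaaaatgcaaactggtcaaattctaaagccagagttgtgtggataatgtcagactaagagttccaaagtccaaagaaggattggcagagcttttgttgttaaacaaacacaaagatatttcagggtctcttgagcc

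4930444M15Rik: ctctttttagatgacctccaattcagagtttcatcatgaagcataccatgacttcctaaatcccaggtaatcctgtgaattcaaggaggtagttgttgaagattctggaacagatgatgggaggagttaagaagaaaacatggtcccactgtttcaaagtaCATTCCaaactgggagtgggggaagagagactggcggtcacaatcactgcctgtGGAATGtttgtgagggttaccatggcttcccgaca

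Gm32429: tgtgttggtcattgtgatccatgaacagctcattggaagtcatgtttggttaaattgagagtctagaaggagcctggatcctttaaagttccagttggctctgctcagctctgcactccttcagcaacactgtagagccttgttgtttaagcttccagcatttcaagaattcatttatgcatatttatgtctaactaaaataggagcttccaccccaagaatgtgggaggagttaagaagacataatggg

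These windows lie at chr19:12765633-12765882 for Cntf, chr3:104360319-104360568 for Gm5546, chr16:7767641-7767890 for Gm29854, chr3:98932522-98932771 for Gm31880, chr14:76520856-76521105 for 4930444M15Rik and chr8:10747258-10747507 for Gm32429. All but Gm29854 are read from the minus strand. The peak over the Cntf window rose from a mean of 22.7 in NSPs to 115 at 24 h and 186 at 72 h, and stood at 181 at 1 week, but the AP-1 match of that window lies outside the peak. Over Gm5546, with 1 AP-1 and 2 TEAD matches inside it, the peak's means were 43.1 in NSPs, 249 at 24 h and 907 at 1 week. The peak at Gm29854 covers 29 bases of the window and none of its 2 AP-1 matches or its TEAD match, and had means of 30.5, 195 and 407 at the same times. The AP-1 match of Gm31880 and both TEAD matches of 4930444M15Rik lie inside their peaks. The peak over Gm32429, whose window holds neither, went from 0.768 to 67.6 and 156.

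Values are normalised read counts, reads in a peak divided by a factor per library, on a scale where 1 read was worth from 0.471 in the deepest library upward. Each NSP library had 28636739 to 39349111 reads in peaks, and every other library 9640256 to 25165008. The median peak of the set held 21 to 30 reads in an NSP library and 64.5 to 275 in any other. NSP replicate 1 stood apart from the other NSP libraries (Spearman correlation over peaks 0.916 and 0.926, against 0.983 between the other 2). Names of libraries from 72 h and 1 week hold a tag (Luc) missing from those of NSPs and 24 h. What the tag marks cannot be told apart from time in any comparison of NSPs or 24 h with 72 h or 1 week. This holds for the rule as well. Both TNF comparisons and 1 week against 72 h lie within 1 kind of name.

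The median of the group means over the 2448 peaks was 15.2 in NSPs, 106 at 24 h, 138 at 72 h and 221 at 1 week, whereas the median over all peaks lay between 82.1 and 85.9 in the 6 groups. From a level far below a typical peak, the set thus came to lie above it. TNF-treated cells had medians of 100.5 at 24 h and 130.1 at 72 h. Of the reads in peaks, the set held 0.300% ± 0.0261 (SD, n = 3) in NSPs, 2.29% ± 0.287 (n = 3) at 24 h, 3.05% ± 0.106 at 72 h (n = 3) and 4.06% ± 0.126 at 1 week (n = 4). TNF-treated cells had shares of 2.22% ± 0.0292 at 24 h and 2.83% ± 0.0956 at 72 h (n = 3 each). The rule fixes the step from NSPs to 24 h, but not the size of the later shares nor those of the TNF libraries.

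**Figure D1:**
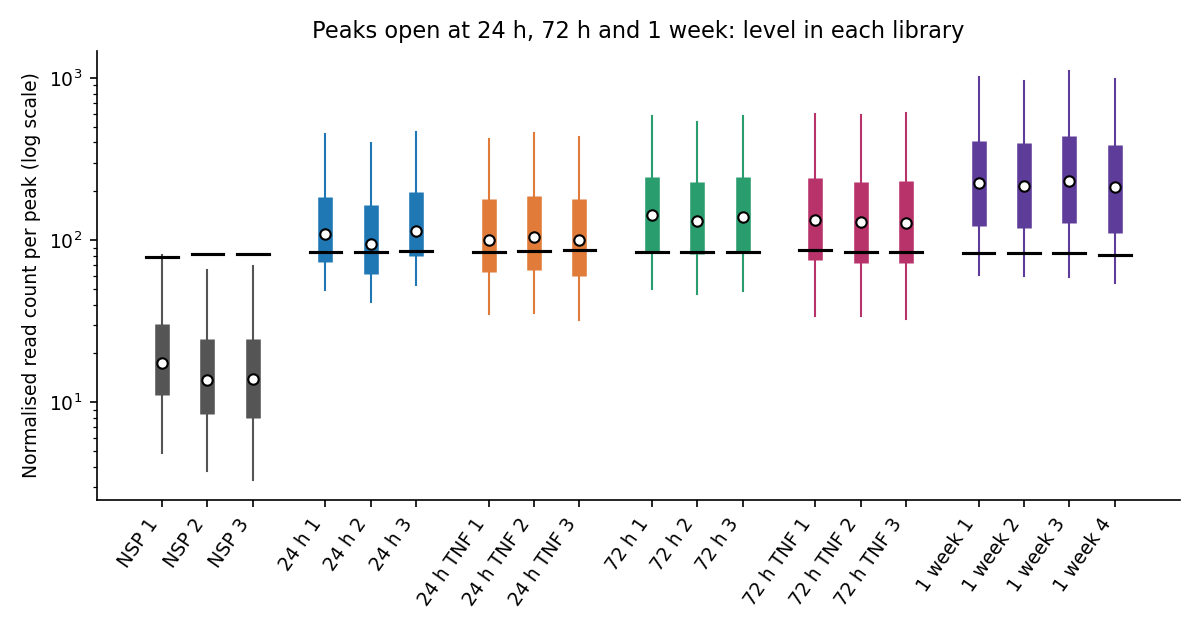
Normalised read counts of the 2448 peaks in each of the 19 libraries (log axis), with the median as a dot, the middle 50% of peaks as a bar and the 5th to 95th percentiles as a line; the black line is the median of all 90154 peaks. The NSP medians lie between 13.7 and 17.5, and those of the differentiating libraries lie between 95.1 and 231.1.

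Of the 3279 peaks that were at least 4 times the NSP mean at 24 h with a mean of at least 50, 2554 (77.9%) were still so at 72 h and 2448 (74.7%) also at 1 week. The 725 lost at 72 h outnumbered the 106 lost at 1 week. In 2446 of the 2448, every library at 24 h, 72 h and 1 week lay above every NSP library. The rule, set on the means of these same libraries, made that likely. The TNF libraries, which took no part in the choice, all lay above every NSP library at 2400 of the peaks (98.0%, against 22.5% of all peaks), and 48 did not. With TNF, 1980 peaks (80.9%) had a mean of at least 4 times NSPs at 24 h and 2076 (84.8%) at 72 h, against 6.72% and 8.32% of all peaks. These ratios use the same NSP libraries as the rule.

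To see how the gain held in libraries that had not chosen the peaks, the rule was applied without one replicate number of each group and the ratio was read in the libraries left out. Since the cultures behind the libraries are not given, those left out may not be independent of those that chose the peaks. At 24 h, 60.4%, 78.5% and 87.8% of the peaks so chosen were at least 4-fold over the NSP library left out, for replicates 1, 2 and 3 in turn, and at 1 week 78.4%, 96.0% and 96.2%. Over all peaks the corresponding shares were between 5.74% and 12.4%. The lowest shares came with NSP replicate 1, the library that stood apart. Without it the rule chose 3031 peaks, among them 95.3% of the 2448.

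With 1 added to each mean, the largest value of the smallest of the 3 ratios to NSPs was at a peak within Pawr (chr10:108335056-108335556), a gene for a pro-apoptotic regulator. Its values were 6.43, 1.88 and 1.99 in NSPs, 202, 205 and 271 at 24 h, 328, 339.7 and 348 at 72 h and 562, 568, 766 and 576 at 1 week. Between Pkd2l2 and its neighbours (chr18:34393166-34393666, 15.1 kb from that polycystin family gene), the mean was 2.96 ± 1.48 in NSPs (SD, n = 3), 167 ± 41.3 (n = 3) at 24 h, 580.0 ± 26.8 (n = 3) at 72 h and 1634 ± 126 at 1 week (n = 4). Both peaks were nearly closed in all 3 NSP libraries, and both stood higher at 1 week than at 72 h without overlap. A peak near P3h2 (chr16:26169343-26169843), whose product hydroxylates prolines of collagen, read 0.584, 1.88 and 0.664 in NSPs, 86.5, 56.1 and 88.7 at 24 h and 431, 404, 363 and 339.9 at 1 week. One in a gene-poor stretch 1116 kb from Arrdc3, an arrestin family gene (chr13:79767620-79768120), rose more evenly, to 534, 508, 544 and 558 at 1 week.

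At 3 peaks every NSP library held 3 reads or fewer, so a ratio against them is a lower bound. Against 3 reads in a library, the peak in Malrd1 (chr2:15656388-15656888) was at least 38.6-fold higher at 24 h and at least 68.0-fold higher at 1 week. For the peak in Sgip1 (chr4:102871197-102871697), a gene for an endocytic adaptor, the bounds were 29.5-fold and 50.6-fold. The peak over Gm32429 (chr8:10747065-10747565), whose promoter window is printed above, was at least 39.3-fold higher at 24 h and at least 90.5-fold higher at 1 week. The table lists no value below 1 read, so a 1 may stand for 0.

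The 6 peaks of the set with the highest level at 24 h were near or in Fxyd3, Zfp469, Amotl1, Fzd10, Osbpl5 and Angpt1, with means from 1179 to 1500.4. All 6 were already measurable in NSPs, at means of 117 to 321. The peak within Angpt1 (chr15:42554549-42555049), which encodes a ligand of the Tie2 receptor, read 175, 79.6 and 97.7 in NSPs, 1369, 999 and 1169 at 24 h, 1331, 1231 and 1424 at 72 h and 2696, 2742, 3367 and 2642 at 1 week. Near Fzd10, a Wnt receptor (chr5:128538577-128539077), the 1 week libraries read 2343, 2173, 2852 and 2438. The peak near Fxyd3 (chr7:31082851-31083351), a modulator of the sodium pump, was the exception to a later rise. It stood at 1733, 1367 and 1916 at 72 h and 1126, 1093, 1358 and 1636 at 1 week, values that overlap (log2 change -0.36, adjusted p = 0.249). In NSPs it read 434, 130.5 and 139, so replicate 1 carried most of that level.

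Peaks at the edge of the rule show what it cut. Among the last taken were peaks within Lrba (chr3:86523052-86523552) and near Drosha (chr15:12965115-12965615), and the first 3 left out were within Runx2 (chr17:44528671-44529171), Kcnab1 (chr3:65204667-65205167) and Camk4 (chr18:33096614-33097114). These had a smallest ratio to NSPs that rounds to 4.00. Means at 24 h were 140.1 and 125 inside and 74.1, 197 and 104 outside, so no step separates the set from its surroundings. The set also kept 236 peaks whose NSP mean was at least 50 and which were therefore open, if weakly, at the start.

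The peaks lay away from gene ends. The centre of 61 of the 2448 (2.49%) lay at most 1 kb from where a protein-coding gene starts or stops, against 15.0% of the 88799 peaks tested on chromosomes of the RefSeq table. Inside a gene lay 1198 (48.9%, against 53.7%). The other 1250 (51.1%) were at a median of 46.2 kb from the nearest gene, against 25.2 kb for all such peaks, and 420 (17.2%, against 11.2%) were more than 100 kb away. The 830 placed peaks that opened at 24 h and were lost later had a like share at gene ends (2.77%), but those outside genes lay farther out, at a median of 72.5 kb. These are descriptions of position, since the table used gives neither strand nor exons, and exons, introns and UTRs were not assigned. Each of the 19 autosomes and X carried members, from 2.23% of the peaks of chromosome 11 to 3.56% of those of chromosome 3.

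**Figure D2:**
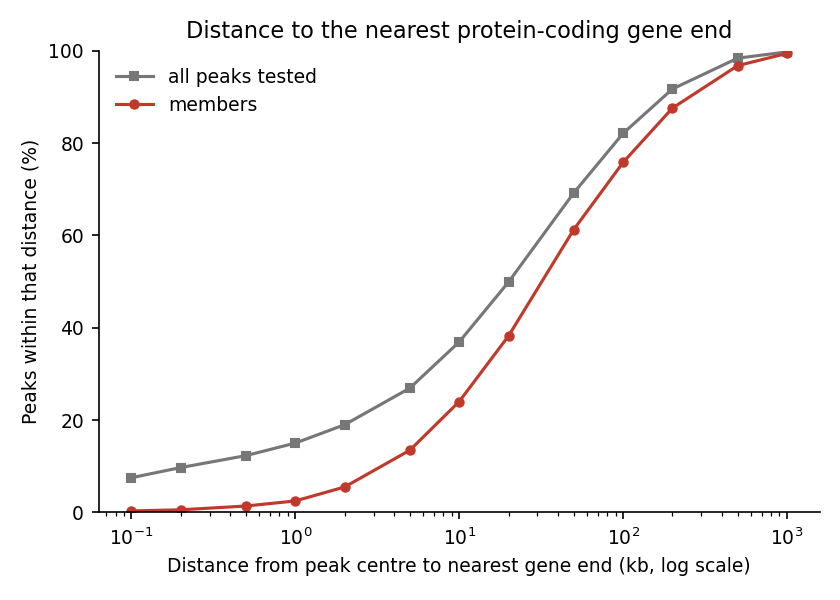
Cumulative share of peaks (percent) against the distance from the peak's centre to the nearest end of a protein-coding gene (kb, log axis), for the 2448 peaks and for all peaks tested. At 1 kb the curves stand at 2.49% and 15.0%, and at 100 kb at 75.8% and 82.1%.

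The 8 gene-end peaks with the highest 24 h mean were at Eef1akmt2, Mrpl10, Slc39a13, Tnfaip1, Olfr1344, Pdia6, Tatdn3 and Irf2bpl, with means from 242 to 944 at 24 h. None overlapped a RefSeq promoter window, so their values are not those of promoters. The nearest start in the promoter windows was 1.53 kb away at Eef1akmt2, 11.5 kb at Tnfaip1 and 18.3 kb at Pdia6. The peak at Pdia6 lies inside its neighbour Atp6v1c2. At Tnfaip1 (chr11:78523501-78524001), named as a TNF-induced gene, untreated values were 544, 497 and 468 at 24 h and 1228, 1287, 1593 and 1318 at 1 week. TNF-treated cells read 518, 519 and 429 at 24 h, overlapping the untreated ones (log2 change -0.04, adjusted p = 0.942). The peak at Pdia6 (chr12:17284680-17285180), a protein disulfide isomerase of the endoplasmic reticulum, was lower with TNF, at 353, 274 and 307 without and 177, 214 and 187 with it at 24 h (log2 change -0.69, SE 0.13, adjusted p = 0.000653), with no overlap. Slc39a13, a zinc transporter (chr2:91061773-91062273), held 38.0, 95.6 and 94.4 in NSPs and 611, 494 and 812 at 24 h.

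Some members lay in runs. Within 50 kb of a member there were 13679 other peaks, of which 596 (4.36%) were members, against 2.72% of the table. Of the 2448, 492 (20.1%) had another member within 50 kb and 1956 did not. Runs linked by such steps numbered 222, 8 of them with at least 4 members. The longest was a run of 5 near Nuak1, a kinase of the AMPK family, where 5 of 10 peaks between 84317882 and 84412018 on chromosome 10 were members. At Adamtsl1, a secreted matrix protein, 4 of the 5 peaks in 36.3 kb on chromosome 4 were members, and at Palld 4 of the 7 in 44.1 kb on chromosome 8. Counted by nearest gene, 1923 genes had at least 1 member and 1547 of them had only 1. Zfat, a zinc-finger gene, had the most, 7 of its 46 peaks, and Shroom3, an actin-binding regulator of cell shape, had 6 of 39, while Adamtsl1, Eno1b, Glis3, Kcnh5, Lrp1b and Nuak1 had 5 each.

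After 24 h the peaks mostly went on rising. The 1 week mean was at least 2 times the 24 h mean at 1104 of the 2448 (45.1%, against 9.69% of all peaks) and at most 0.5 times at 22 (0.899%, against 15.8%). The median ratio was 1.86, over a range of 0.102 to 19.2, against 1.02 for all peaks. The highest of the 3 untreated means was at 1 week for 2001 peaks (81.7%), at 24 h for 253 (10.3%) and at 72 h for 194 (7.92%). A steady rise from 24 h to 72 h to 1 week was seen at 1535 peaks (62.7%) and a steady fall at 108 (4.41%). Because the rule demanded a floor at 72 h and 1 week, falls beyond it could not enter the set. The name tag differs between 24 h and the later times, so its part in these courses cannot be told apart from time.

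Calls used limma on log2(value + 1) over all tested peaks, with an adjusted p under 0.05. From 72 h to 1 week, 1373 members rose (56.1%, against a background of 22.5% of all tested peaks) and 18 fell (0.735%, against 16.2%), with a median log2 change of 0.62 against 0.02 for all peaks. This comparison depended on the scaling. With libraries scaled to their total reads in peaks, 834 members rose (34.1%) and 108 fell (4.41%), against 8.96% and 33.8% of all peaks, and the median change was 0.28 for the members and -0.31 for all peaks, a shift of -0.33 for all peaks from the other scaling. Without 72 h replicate 1 or 72 h replicate 3 the number that fell was 10. From 24 h to 72 h, 705 members rose (28.8%, against 12.0%) and 92 fell (3.76%, against 14.3%), with a median of 0.30. Total-read scaling gave 817 and 73, and turned the order for all peaks to 15.6% higher and 11.8% lower. The number that fell was 58 without 24 h replicate 3 and 57 without 72 h replicate 2. Both comparisons use libraries that chose the peaks, and the second spans the change of library names.

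The change from 24 h to 72 h in TNF-treated cells used no library of the rule. There 722 members rose (29.5%, against 10.3%) and 125 fell (5.11%, against 11.5%), and the median log2 change was 0.31, against -0.01 for all peaks. The number that fell was 81, 82 and 83 without 24 h TNF replicate 2, 24 h TNF replicate 3 and 72 h TNF replicate 1. These libraries too differ in the name tag between 24 h and 72 h, so its part in the rise cannot be told apart from time. With TNF too, more of the members were thus called higher than lower from 24 h to 72 h, while 1601 were not called. The rule dropped peaks lost by 72 h or 1 week without TNF, and what part this had in the rise was not tested.

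**Figure D3:**
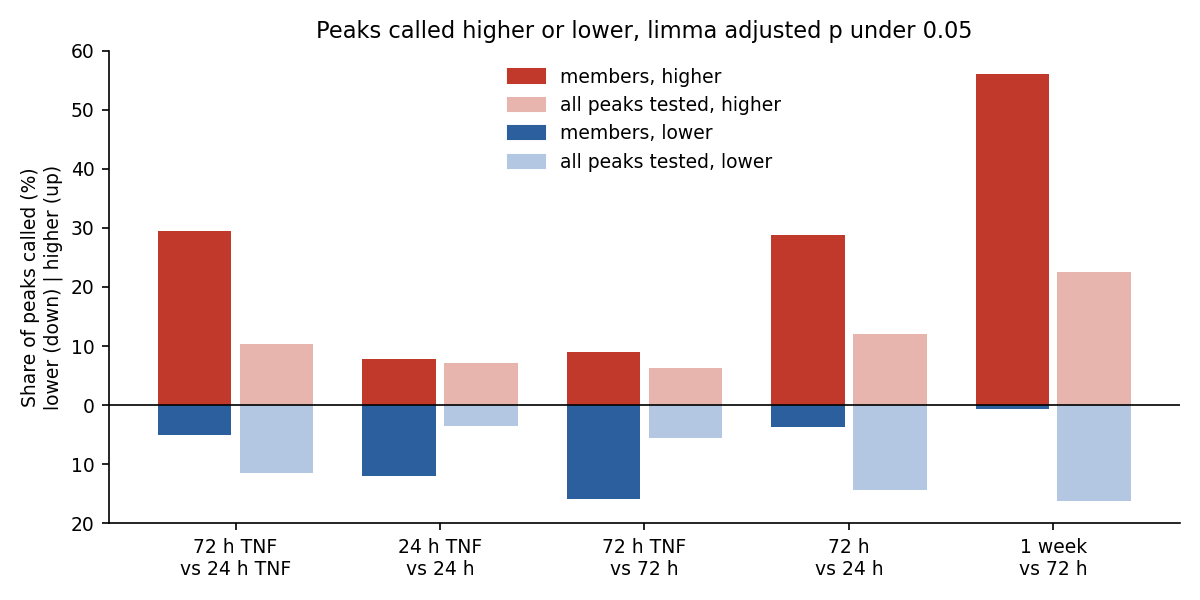
Percent of peaks called higher (upward bars) or lower (downward bars) by limma in 5 comparisons, for the 2448 peaks (dark) and for all 88919 peaks tested (pale). In the 3 comparisons of a later with an earlier time the upward bars of the set exceed those of all peaks. With TNF at 24 h and 72 h the downward bars do, at 12.1% and 15.9% against 3.53% and 5.55%. The upward bars there do so by less, at 7.84% and 9.03% against 7.06% and 6.24%. Untreated libraries of the TNF comparisons had also chosen the peaks.

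Among the members called in TNF-treated cells with separated libraries, the 3 with the smallest p in each direction were near or in Jade2, Kntc1 and Elp6 (higher at 72 h) and Lmx1a, Csk and Erv3 (lower). Near Jade2 (chr11:51807310-51807810), which encodes a scaffold of a histone acetyltransferase complex, values were 121, 106 and 89.3 at 24 h with TNF and 364, 349 and 362 at 72 h with TNF (log2 change 1.77, SE 0.15, adjusted p = 3.74e-10). Without TNF the same peak went from 169, 148 and 143 to 434, 417 and 393 and reached 973, 960.1, 1102 and 1006 at 1 week. All libraries of each later time lay above all of the earlier one. Near Kntc1, a kinetochore gene (chr5:123837302-123837802), the rise with TNF was from 111, 85.1 and 65.4 to 389, 412 and 317 (log2 change 2.11, SE 0.18, adjusted p = 9.11e-10).

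The peak within Lmx1a (chr1:167761812-167762312), a LIM-homeodomain transcription factor gene, fell after an early height. It read 65.4, 43.3 and 62.5 in NSPs, 901, 748 and 985 at 24 h, 338, 327 and 329 at 72 h and 345, 425, 328 and 314 at 1 week. With TNF it went from 669, 621 and 593 to 210.1, 197 and 245 (log2 change -1.53, SE 0.15, adjusted p = 1.4e-08). It thus fell with and without TNF and still stayed above NSPs. In Csk (chr9:57639795-57640295), a kinase that restrains Src family kinases, values with TNF went from 309, 305 and 298 to 143, 117 and 92.4 (log2 change -1.39, SE 0.16, adjusted p = 3.63e-07), and without it from 501, 410.1 and 480.4 to 332, 339 and 352. The difference between those 2 falls was not past the threshold, as no member was in the interaction of TNF with time.

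Without TNF, the members with the smallest p from 24 h to 72 h were near or in Tnp1, Tatdn3 and Gdpd5 (higher) and Dock10, Lmx1a and Cep162 (lower). Within Gdpd5 (chr7:99403430-99403930), which encodes a glycerophosphodiesterase, values went from 162, 149 and 181 at 24 h to 463, 416 and 540.4 at 72 h (log2 change 1.52, SE 0.14, adjusted p = 3.81e-09) and 862, 872, 1003 and 1047 at 1 week. At the end of Tatdn3, a putative nuclease gene (chr1:191046033-191046533), they went from 296, 226 and 298 to 948, 769 and 975 (log2 change 1.72, SE 0.14, adjusted p = 2.06e-10). Each of these rose without overlap. The peak 142 kb from Dock10 (chr1:80900693-80901193), a gene for a guanine nucleotide exchange factor, was highest at 24 h, with 7.01, 8.48 and 4.65 in NSPs, 281, 257 and 323.9 at 24 h, 37.3, 32.3 and 53.5 at 72 h and 33.5, 31.2, 22.0 and 31.1 at 1 week (log2 change -2.80, SE 0.27, adjusted p = 8.5e-09 from 24 h to 72 h). Its later means were still more than 4-fold above the NSP mean, which kept it in the set.

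From 72 h to 1 week, the members with the smallest p were near Sbf2, Egln1 and Rspo2 (higher) and in or near Fam193b, Ktn1 and Npas3 (lower). Near Egln1 (chr8:124960131-124960631), the oxygen-sensing prolyl hydroxylase that marks HIF for breakdown, values were 239, 239 and 285 at 24 h, 566, 541 and 664 at 72 h and 1741, 1808, 2242 and 2146 at 1 week (log2 change 1.74, SE 0.12, adjusted p = 2.08e-10 from 72 h). The peak near Rspo2 (chr15:42955161-42955661), an activator of Wnt signalling, dipped before it rose, from 176, 148 and 182 at 24 h to 129, 98.1 and 119.8 at 72 h and 622, 608, 867 and 654 at 1 week (log2 change 2.56, SE 0.18, adjusted p = 2.51e-10). Both rises separated all libraries. In Fam193b (chr13:55541677-55542177) the values fell at each step, from 286, 227 and 271 at 24 h to 162, 146 and 181 at 72 h and 60.0, 64.7, 68.2 and 56.8 at 1 week (log2 change -1.37, SE 0.18, adjusted p = 2.05e-06).

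**Figure D4:**
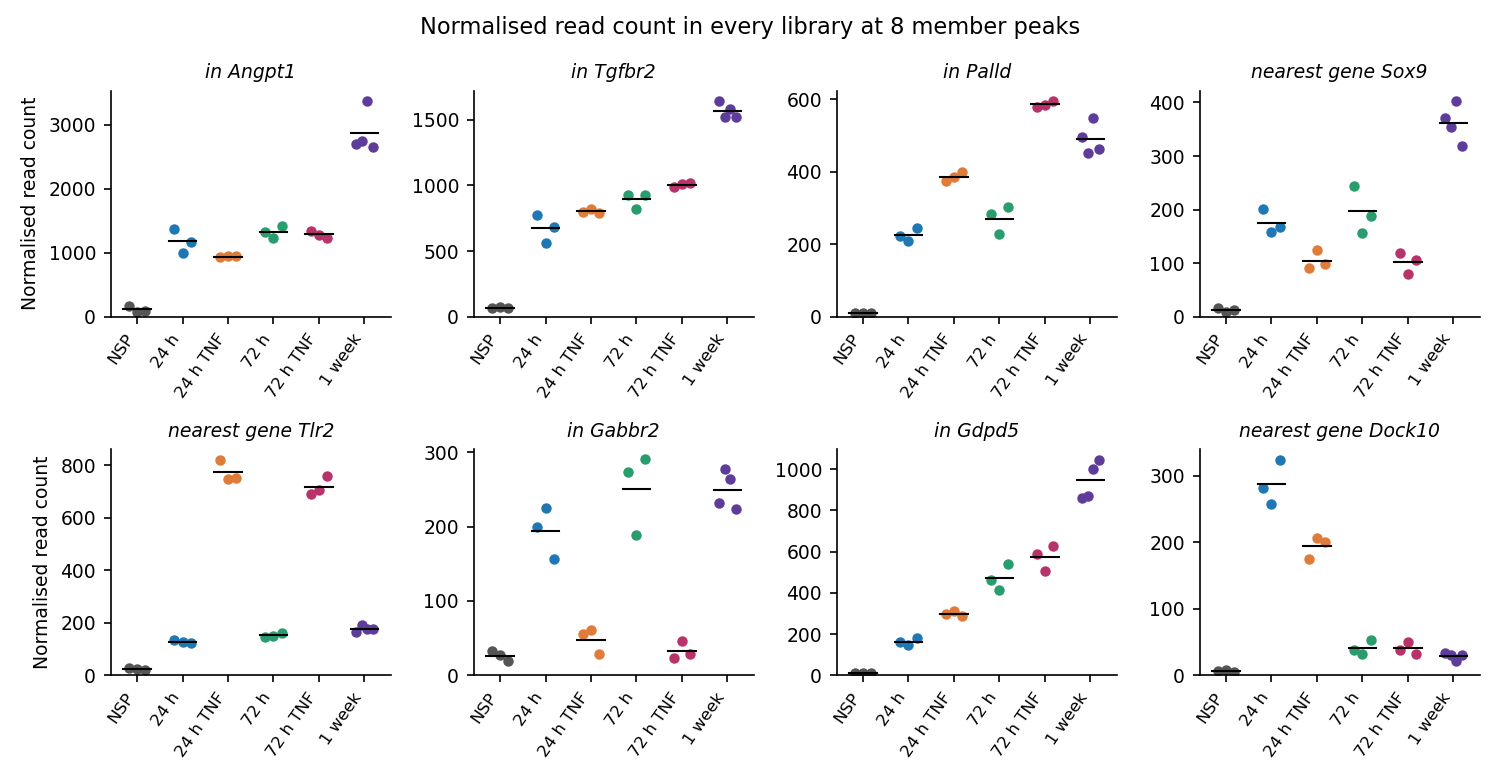
Normalised read counts of 8 peaks of the set in each library (points) of the 6 groups, with the group mean as a line, 1 panel a peak named by its nearest gene (Angpt1, Tgfbr2, Palld, Sox9, Tlr2, Gabbr2, Gdpd5 and Dock10). Angpt1, Tgfbr2 and Gdpd5 climb to 1 week, Dock10 falls after 24 h, and Tlr2 and Gabbr2 show the TNF groups above and below their untreated partners.

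TNF moved a minority of the peaks. At 24 h, 192 members were higher with TNF (7.84%, against 7.06% of all tested peaks) and 296 lower (12.1%, against 3.53%), with a median log2 change of -0.12 against -0.03. At 72 h, 221 were higher (9.03%, against 6.24%) and 390 lower (15.9%, against 5.55%), with a median of -0.11 against 0.03. Total-read scaling gave 176 higher and 470 lower at 72 h, and for all peaks it turned the order there to 4.75% higher and 7.42% lower. The untreated libraries of each comparison had also chosen the peaks, so high untreated values were favoured. When the rule was applied without the 24 h libraries, 485 of 4654 peaks were higher (10.4%) and 395 lower (8.49%) at 24 h, so the balance turned. When it was applied without the 72 h libraries, 253 of 2699 were higher (9.37%) and 413 lower (15.3%) at 72 h, so there the balance held. Each choice still asked for high untreated values at the other times, and the first gave a much larger set. Neither therefore frees the TNF counts from the choice of peaks. The 24 h counts also hung on single libraries. Without 24 h replicate 1 there were 138 higher and 159 lower, without 24 h replicate 2 there were 111 and 241, without 24 h replicate 3 there were 214 and 195, and without 24 h TNF replicate 3 there were 119 and 158.

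The calls at the 2 times overlapped. Higher with TNF at both were 127 members, 66.1% of those higher at 24 h and 57.5% of those higher at 72 h. Over all tested peaks the corresponding shares were 51.7% and 58.5%. Lower at both were 197, 66.6% of 296 and 50.5% of 390, against 52.7% and 33.5% of all peaks so called. No member was called in opposite directions, against 3 of all tested peaks, and 1673 of the 2448 (68.3%, against 83.1%) were called at neither time. Whether these shares differ from those of all peaks was not tested. The interaction of TNF with time passed the threshold at none of the members by limma and at 1 peak of all tested (0.00112%). At an unadjusted p under 0.05 it was positive at 71 members and negative at 99, edgeR called none and DESeq2 called 5. These counts were not set beside those of all peaks, so they say nothing particular of the set. The lowest adjusted p of a member was 0.219, so no difference in the TNF change between 24 h and 72 h was detectable at these sample sizes by limma.

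Over the 197 peaks lower with TNF at both times, the median of the means was 21.7 in NSPs, 145 at 24 h without TNF and 77.0 with it, and 194 at 72 h without TNF and 81.9 with it. With TNF, 65 of the 197 were still at least 4-fold over NSPs at 24 h and 87 at 72 h. These peaks were picked for their lower values with TNF, so that order was fixed by the choice. The 1 week median without TNF was 249. Over the 127 higher at both times, the medians were 16.8 in NSPs, 115 and 209 at 24 h without and with TNF, 154 and 321 at 72 h, and 306 at 1 week. At gene ends were 6 of the 197 and none of the 127.

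**Figure D5:**
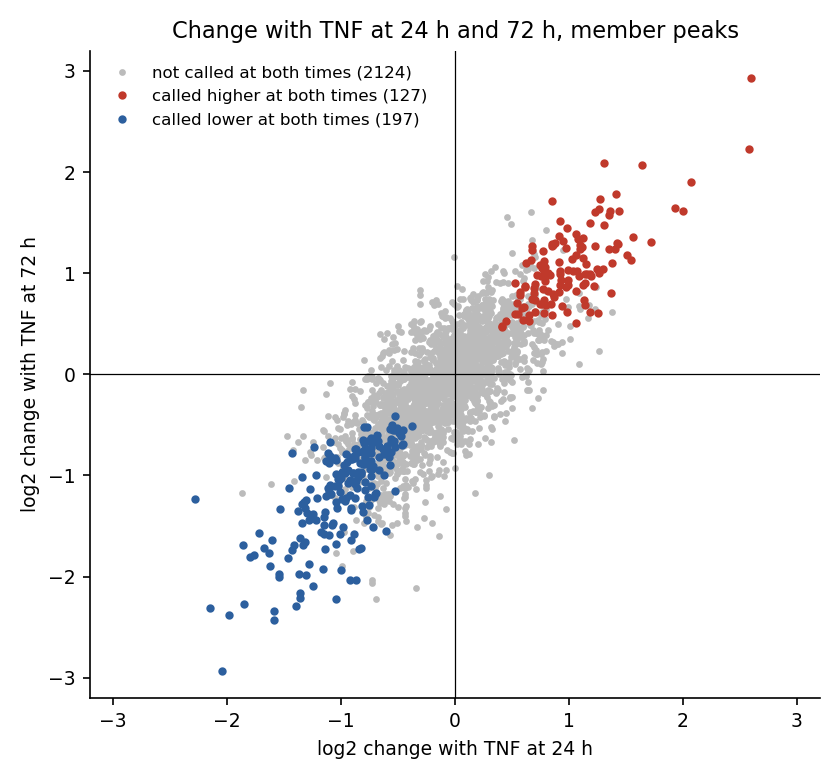
Log2 change with TNF at 24 h (horizontal axis) against that at 72 h (vertical axis) for each of the 2448 peaks, with the 127 called higher at both times in red, the 197 called lower at both in blue and the rest in grey. Red points lie in the upper right and blue points in the lower left; the libraries of the 2 times are different.

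The smallest p for a member raised by TNF was, at both times, at a peak near Tlr2 (chr3:83862823-83863323), the gene of a receptor for bacterial lipoproteins. Without TNF it read 134, 127 and 124.4 at 24 h, 147, 151 and 161 at 72 h and 164, 192, 176 and 176 at 1 week, after 27.5, 24.5 and 19.9 in NSPs. With TNF it read 822, 748 and 751 at 24 h (log2 change 2.58, SE 0.14, adjusted p = 1.13e-12) and 693, 707 and 759 at 72 h (log2 change 2.23, SE 0.14, adjusted p = 1.35e-11). No untreated library at any time reached the TNF-treated ones. A peak within Ctps (chr4:120567974-120568474), which encodes CTP synthase, differed in that untreated cells came to the same height later. It read 109, 98.8 and 135 at 24 h without TNF and 426, 456 and 488 with it (log2 change 2.00, SE 0.15, adjusted p = 8.33e-10), 688, 655 and 661 at 72 h with TNF, and 623, 637, 643 and 661 at 1 week without.

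Near Myc (chr15:61974038-61974538), a growth-promoting transcription factor, the 72 h values were 196, 219 and 206 without TNF and 654, 723 and 696 with it (log2 change 1.73, SE 0.16, adjusted p = 1.22e-08), and untreated cells at 1 week read 396, 368, 453 and 381. A peak 108 kb from Fut10 (chr8:31373245-31373745), a fucosyltransferase gene, rose with TNF at 24 h from 173, 133 and 166 to 539, 692 and 764 (log2 change 2.07, SE 0.16, adjusted p = 8.33e-10) and at 72 h to 1113, 1059.8 and 1072 (log2 change 1.90, adjusted p = 3.49e-09). Near Tns3, a tensin that links integrins to actin (chr11:8674707-8675207), the peak with almost no NSP reads in 2 of 3 libraries (8.76, 1.41 and 0.664) read 176, 161 and 188 at 24 h without TNF and 355, 438 and 417 with it (log2 change 1.20, SE 0.32, adjusted p = 0.014). In all of these the treated and untreated libraries did not overlap.

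Among members lowered by TNF, the smallest p at 72 h was within Gabbr2 (chr4:46710033-46710533), which encodes a subunit of the GABA-B receptor. Untreated cells read 273, 189 and 291 at 72 h and treated cells 23.2, 45.8 and 28.8 (log2 change -2.94, SE 0.27, adjusted p = 1.48e-08). The treated values at 72 h overlapped those of NSPs, which were 32.7, 26.9 and 18.6. Within Smim5 (chr11:115902180-115902680), a gene for a small membrane protein that here overlaps Recql5, the treated cells were at 208, 156 and 155 at 24 h and 45.6, 51.7 and 48.0 at 72 h, against 384, 359.9 and 323 and 234, 221 and 233 without TNF (log2 change -2.22, SE 0.22, adjusted p = 8.7e-08 at 72 h). With TNF the peak was lower at 72 h than at 24 h (log2 change -1.80, adjusted p = 1.28e-06).

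Within Sdk2 (chr11:113806208-113806708), a cell adhesion molecule of the immunoglobulin family, values at 24 h were 475, 441 and 296 without and 128, 99.1 and 113 with TNF (log2 change -1.80, SE 0.21, adjusted p = 8.3e-07). At 72 h they were 733, 616 and 707 and 221, 179 and 186 (log2 change -1.81, adjusted p = 7.58e-07). NSP replicate 1 alone was higher than the other NSP libraries there (140.2, 71.1 and 55.2). A peak 1.69 kb from Mtch2, a protein of the outer mitochondrial membrane (chr2:90868253-90868753), was lower with TNF at both times but rose under it, from 31.0, 25.9 and 21.8 at 24 h to 67.9, 68.0 and 54.0 at 72 h (log2 change 1.25, SE 0.20, adjusted p = 5.89e-05). That rise, and the one without TNF from 207, 199.8 and 206 at 72 h to 573, 572, 786 and 638 at 1 week, separated all libraries. The peak near Hs1bp3 (chr12:8365371-8365871) was not called between 24 h and 72 h with TNF (log2 change 0.10, adjusted p = 0.654).

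Members were then read by the role of their nearest gene. Of the 195 genes in 13 lists, 34 were nearest to at least 1 member, and 59 of the 2084 peaks nearest to a listed gene were members (2.83%, close to the 2.72% of the table). By list, the share was 8.93% for RUNX genes (5 of 56 peaks), 4.18% for extracellular matrix (10 of 239), 3.45% for TEAD and YAP (5 of 145), 3.40% for actin and contractile genes (5 of 147), 3.28% for integrins and focal adhesion (9 of 274) and 2.67% for TGF-beta (5 of 187). It was 2.35% for astrocyte genes (4 of 170), 2.24% for EGF and FGF signalling (3 of 134), 2.15% for reactive astrocyte genes (2 of 93), 2.08% for gliogenic transcription factors (8 of 385), 1.85% for neuronal genes (2 of 108), 1.35% for AP-1 genes (1 of 74) and 0 of 72 for oligodendrocyte genes. Nearest genes may not be the genes a peak acts on. Counted by position instead, 33 members were in a listed gene or within 10 kb of it, whichever gene was nearest, so they are not all among the 59. The calls by list below stand against those of the set, of which 28.8% rose from 24 h to 72 h, 56.1% rose from 72 h to 1 week, 12.1% were lower with TNF at 24 h and 15.9% at 72 h. Among all tested peaks these shares were 12.0%, 22.5%, 3.53% and 5.55%. No list was tested against the set, and each holds 10 members or fewer.

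Among gliogenic transcription factor genes, Nfia and Nfib had 3 members each and Sox9 had 2. Of the 8, 4 rose from 24 h to 72 h, 4 rose from 72 h to 1 week (3 with total-read scaling), near the 56.1% of the set, and 2 and 3 were lower with TNF at 24 h and 72 h. Within Nfia (chr4:97939297-97939797) the values were 115, 169.6 and 143 at 24 h, 266, 323 and 293 at 72 h and 584, 595, 660.2 and 522 at 1 week, with all libraries of each time above those of the time before (log2 change 1.00, SE 0.15, adjusted p = 6.97e-06 from 72 h). A peak 239 kb from Sox9 (chr11:112543298-112543798) read 200.4, 158 and 168 at 24 h and 91.1, 125 and 97.6 with TNF (log2 change -0.75, SE 0.21, adjusted p = 0.0164). At 72 h it read 244, 157 and 189 without and 119.8, 79.8 and 106 with TNF (log2 change -0.94, SE 0.21, adjusted p = 0.00244). The treated cells were lower at both times with no overlap, and the rise from 72 h to 1 week to 370.3, 354, 403 and 319.5 was seen without TNF, the condition measured at that time.

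The 4 astrocyte genes with a member were Kcnj10, Gja1, Clu and Slc1a3. Of the 4 peaks, 1 was lower with TNF at 24 h, 2 were lower at 72 h and none was higher, against 12.1% and 15.9% of the set lower and 7.84% and 9.03% higher. Total-read scaling gave 2 lower with TNF at 24 h and 2 at 72 h. From 72 h to 1 week 1 of the 4 rose, the peak within Kcnj10. With total-read scaling none rose there, 1 fell and 3 had a log2 change under 0, where 34.1% of the set rose and 4.41% fell. The peak within Kcnj10 (chr1:172343685-172344185), the gene of the Kir4.1 potassium channel of astrocytes, was the most accessible of them, at 784, 708 and 613 at 24 h, 957, 901 and 1178 at 72 h and 1725, 1662, 2047 and 1718 at 1 week (log2 change 0.83, SE 0.25, adjusted p = 0.0105 from 72 h). In NSPs it read 256, 67.8 and 64.5, so replicate 1 was far above the other 2. Nearest to Gja1, the gene of connexin 43, but 452 kb from it (chr10:56841912-56842412), values at 72 h were 217, 201 and 212 without and 87.6, 118 and 88.8 with TNF (log2 change -1.10, SE 0.24, adjusted p = 0.00286). Within Clu, the clusterin gene (chr14:65971487-65971987), 72 h values were 176, 185 and 189.9 and 110.0, 174 and 127, and that difference missed the threshold (log2 change -0.45, adjusted p = 0.205).

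Of the reactive astrocyte list, Tm4sf1 and Cd109 had 1 member each, and neither was higher with TNF. Within Tm4sf1, a tetraspanin-like membrane protein (chr3:57293799-57294299), untreated values were 123, 117 and 154 at 24 h, 243, 300.2 and 254 at 72 h and 455, 496, 491 and 465 at 1 week, rising without overlap (log2 change 1.02, adjusted p = 0.000199 to 72 h). The peak 181 kb from Cd109 (chr9:78897509-78898009), a TGF-beta co-receptor, read 85.4, 50.2 and 57.9 at 24 h without TNF and 20.3, 32.3 and 21.8 with it (log2 change -1.33, SE 0.39, adjusted p = 0.0244). The AP-1 list had 1 member, 40.5 kb from Jun (chr4:95092499-95092999), whose values of 87.7, 44.3 and 70.2 at 24 h and 65.2, 78.7, 66.0 and 77.2 at 1 week overlapped and which was called in none of the 5 comparisons.

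In the actin list, Palld had 4 members and Tpm4 had 1, and all 5 rose from 72 h to 1 week (4 with total-read scaling), against 56.1% of the set and 22.5% of all peaks (34.1% and 8.96% with that scaling). Palld encodes palladin, a scaffold of actin bundles, and its peaks did not get the same calls with TNF, though no difference between them was tested. One (chr8:61573473-61573973) read 283, 227 and 303 at 72 h without TNF and 580.2, 585 and 595 with it (log2 change 1.12, SE 0.14, adjusted p = 1.88e-06). Another, farther along the gene (chr8:61617041-61617541), read 194, 178 and 182 at 24 h without TNF and 137, 149 and 88.3 with it (log2 change -0.60, SE 0.18, adjusted p = 0.0258) and was not called at 72 h (log2 change -0.12, adjusted p = 0.74). The third named one (chr8:61615799-61616299), a short way from the second, was called at neither time (log2 change -0.19, adjusted p = 0.654 at 24 h and log2 change -0.31, adjusted p = 0.351 at 72 h). At 1 week these read 496, 452, 548 and 462, then 882, 822, 790.0 and 813, then 795, 770.0, 919.8 and 761.

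All 5 members of the TEAD and YAP list, near Amotl1 (2), Amotl2 (2) and Tead1 (1), rose from 72 h to 1 week, or 4 with total-read scaling, where the set as a whole gave 56.1% and 34.1%. None was called with TNF at either time, as was the case for 68.3% of the set. Angiomotin-like proteins bind YAP and hold it at junctions. Near Tead1 (chr7:112663332-112663832) the values were 833, 728 and 774 at 72 h and 1468, 1507, 1763 and 1466 at 1 week (log2 change 0.99, SE 0.16, adjusted p = 1.65e-05), and with TNF 827, 766 and 849.7 at 72 h (log2 change 0.07, adjusted p = 0.852). Near Amotl2 (chr9:102779418-102779918) they went from 280.1, 238 and 337 at 24 h to 418, 333 and 399 at 72 h and 947, 987, 1091 and 863 at 1 week (log2 change 1.34, SE 0.13, adjusted p = 1.83e-08 from 72 h). Near Amotl1 (chr9:14532224-14532724) the untreated order was different, with 1361, 1230.3 and 1420.1 at 24 h, 1078, 849 and 1063 at 72 h and 2189, 2049, 2894 and 2146 at 1 week. The lower 72 h values did not pass the threshold (log2 change -0.43, adjusted p = 0.133).

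In the TGF-beta list, the receptor gene Tgfbr2 had 1 member and Smad6, an inhibitory SMAD that dampens BMP and TGF-beta signals, had 4. Of the 5, 2 rose from 24 h to 72 h, 3 rose from 72 h to 1 week (2 with total-read scaling) and none was called with TNF, against 28.8%, 56.1% and 68.3% of the set. Within Tgfbr2 (chr9:116152673-116153173) the values were 66.6, 72.5 and 65.8 in NSPs, 776, 561 and 686 at 24 h, 930.3, 824 and 930.5 at 72 h and 1644, 1522, 1582 and 1519 at 1 week (log2 change 0.81, SE 0.10, adjusted p = 1.16e-06 from 72 h). With TNF they were 797, 821 and 789 at 24 h and 986, 1008 and 1018 at 72 h, above every untreated library of the same time but not past the threshold (log2 change 0.26, adjusted p = 0.138 and log2 change 0.17, adjusted p = 0.367). Among the Smad6 peaks, one outside the gene (chr9:63896316-63896816) went from 337, 271 and 464 at 24 h to 1475, 1361, 1622 and 1386 at 1 week, whereas one inside it (chr9:63965590-63966090) went from 560.2, 475 and 471 to 661, 702, 746 and 599.

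Extracellular matrix genes with members were Col5a1 and Col8a1 (2 each), Col12a1, Col4a2, Fbn1, Sparc, Thbs1 and Tnc (1 each). Of the 10 peaks, 7 rose from 72 h to 1 week against 56.1% of the set, but with total-read scaling 3 rose and 1 fell. With TNF 1 was higher and 2 lower at 24 h and 1 higher and 3 lower at 72 h. Near Thbs1, a matrix glycoprotein that activates latent TGF-beta (chr2:117882106-117882606), values at 72 h were 178, 128 and 141 without and 291, 236 and 258 with TNF (log2 change 0.82, SE 0.16, adjusted p = 0.000983). Near Col12a1, a collagen gene (chr9:79518477-79518977), they were 194, 154 and 205 and 107, 117 and 73.2 (log2 change -0.91, SE 0.24, adjusted p = 0.0131). The 2 peaks thus moved in opposite directions with TNF, each without overlap. Within Col8a1 (chr16:57740114-57740614) the rise from 72 h to 1 week was from 409, 410.3 and 426 to 713, 691, 854 and 707 (log2 change 0.83, SE 0.19, adjusted p = 0.00113).

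Integrin and focal adhesion genes had 9 members, at Tns1 (3), Parva (2), Tns3 (2), Itga3 and Itga7 (1 each), and 7 of them rose from 72 h to 1 week (3 with total-read scaling), against 56.1% of the set (34.1%). The peak 365 kb from Tns1 (chr1:73545389-73545889), a tensin gene, read 496, 359.9 and 464 at 24 h, 703, 573 and 639.9 at 72 h and 1035, 1123, 1109 and 988 at 1 week. With TNF it stayed at 267, 304 and 238 at 24 h and 255, 297 and 287 at 72 h (log2 change -1.19, SE 0.14, adjusted p = 1.01e-06 at 72 h), and the change from 24 h to 72 h with TNF was not called (log2 change 0.06, adjusted p = 0.806). Within Itga3, an integrin subunit for laminin (chr11:95070687-95071636), values were 314, 245 and 291 at 24 h and 261, 254 and 243 at 72 h, overlapping, and 399, 375, 352 and 390.3 at 1 week (log2 change 0.58, adjusted p = 0.00239). The other peak near Tns3, 268 kb from the gene (chr11:8163633-8164133), fell from 263, 226 and 310.4 at 24 h to 127, 115 and 175 at 72 h (log2 change -0.94, SE 0.18, adjusted p = 0.000285).

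RUNX genes, for transcription factors of bone, blood and other lineages, had 4 members at Runx2 and 1 at Runx1. Of the 5, 1 rose and none fell at each later step of the untreated course, where 28.8% and 56.1% of the set rose, and with total-read scaling none rose from 72 h to 1 week. With TNF, 2 were lower at 24 h and 1 at 72 h. Within Runx2, 1 peak (chr17:44522770-44523270) read 74.6, 109 and 109.6 at 72 h without and 39.3, 32.5 and 56.4 with TNF (log2 change -1.19, SE 0.32, adjusted p = 0.0135), and another (chr17:44624574-44625074) read 149, 83.7 and 99.4 and 125, 123 and 127 (log2 change 0.22, adjusted p = 0.685). The first pair of groups did not overlap and the second did. Fgfr2, a receptor for FGFs, had all 3 members of the EGF and FGF list, and one of the 2 outside the gene, at chr7:130143373-130143873, rose from 614, 574 and 738 at 72 h to 1099, 1099.6, 1186 and 1043 at 1 week (log2 change 0.79, adjusted p = 0.000127). Map2, the gene of a neuronal microtubule protein, had both members of the neuronal list. The nearer (chr1:66164456-66164956) read 277, 275 and 210.3 at 72 h without TNF and 197, 174 and 157 with it (log2 change -0.52, adjusted p = 0.0347), and the farther (chr1:66150746-66151246) read 71.7, 53.1 and 51.7 and 95.5, 105 and 92.4 at 24 h (log2 change 0.73, adjusted p = 0.0361).

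The labelled cell types were set against peaks at the ends of defining genes, none of which is in the set. For neural progenitors, 4 of 5 genes had such a peak, and their summed level was 4269 to 4769.6 in NSP libraries and 2245 to 2358 at 1 week. Hes5, a Notch target, carried most of that fall, from a mean of 1976 to 93.0, and Fabp7, a fatty acid binding protein gene, went from 769 to 450.3. Sox2 (1258 and 1279.9) and Nes (435 and 471), genes of a progenitor transcription factor and of nestin, were no lower at 1 week. For astrocytes, 5 of 6 genes had one, with sums of 735 to 1069 in NSPs, 1266 to 1377 at 72 h and 974 to 1138 at 1 week, and Gfap, the astrocyte filament gene, had means of 108 in NSPs, 489 at 24 h, 529 at 72 h and 258 at 1 week. Gja1 went from 91.8 in NSPs to 148 at 1 week and the transporter gene Slc1a3 from 251 to 329.9, whereas Slc1a2, another transporter gene, went from 319 to 250.2 and Aldh1l1, a folate enzyme gene, from 89.3 to 68.1. With TNF, Gfap was at 369 at 24 h and 246 at 72 h. Markers of neurons (3 of 5 genes with a peak), oligodendrocytes (2 of 5), microglia (1 of 5), endothelium (0 of 4) and fibroblasts (1 of 5) gave few peaks to read. The sum over neuron markers was 1294 to 1478 in NSPs, 888 to 992 at 72 h and 1122 to 1312 at 1 week. Map2 had means of 976 in NSPs and 832 at 1 week. The sum over microglia markers was 32.3 to 86.2 over all libraries, and Col1a1, the only fibroblast marker with a peak, had group means of 198 in NSPs to 281. Their part in the values above was not tested.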

How the data were processed

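Per the labels and the published methods, the authors used Trim Galore to trim reads, FastQC to check them, Bowtie2 to align them (mm10 in the submitters' processing notes), SAMtools to take out mitochondrial reads and MACS2 to call peaks, for which no versions are given in the sources used here. Peaks in ENCODE blacklist regions were dropped, and the authors tested differences with DiffBind. Whether reads were shifted for the transposase or duplicates removed is not given there either. The deposited table holds a signal, the normalised read count of 90154 peaks in 19 libraries made by the authors, and is not a table of raw counts. Divided by the value of 1 read, fitted to each library's low values, 100% of values up to about 20 reads came out whole within 0.01. Higher values were rounded to whole reads and not checked in this way. The reads in peaks so recovered were 9640256 to 39349111, with the most in the NSP libraries. The members, chosen for low NSP values, nevertheless held few reads there. Between 56.1% and 67.8% of values of 2 to 20 reads were odd, so these reads may not be independent fragments.

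The planned count test was therefore replaced by the planned limma-trend fit (limma 3.58.1, R 4.3.3) to log2(value + 1) of all 19 libraries, with a mean per group, two-sided, adjusted by Benjamini-Hochberg over the 88919 peaks that edgeR's filterByExpr kept at a minimum count of 10. All 2448 members passed that filter and 1235 other peaks did not. Fold changes on this scale understate changes of low peaks. Alternatives were other scalings, pseudocounts, filters and samples in the fit, edgeR 4.0.16 and DESeq2 1.42.0 on recovered reads, a replicate block, and each library left out in turn.

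The members and lists were chosen with earlier results of these data known. Named peaks are the 6 with the highest 24 h mean, the 6 with the largest smallest ratio to NSPs (1 added to each mean), the 8 highest at 24 h with a centre within 1 kb of a gene end, the 3 with the smallest p in each direction of each comparison among calls whose libraries do not overlap, the 3 highest of each gene list, the 6 genes with most members (8 with ties), and the 3 peaks on either side of the rule, of which 1 is not reported here. A few other peaks were named after their values were seen, for their NSP reads or promoter windows. Gene positions, promoter windows and their sequences came from RefSeq tables (GRCm38.p6). The gene table has no strand, and motifs in the peaks were not searched. Peak positions are as the table gives them.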

Additional observations from a re-analysis of the deposited data

Results flagged for a closer look

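Among 82 named peaks, 1 sample stood apart in the 1 week group, the only group with 4 libraries, at 9 peaks, as the gap from the highest or lowest sample to its nearest neighbour took up more of the group's range than Dixon's 95% critical value for 4 values. Chance flags about 1 in 20 groups. At 7 of the 9 the sample was replicate 3, the shallowest library, and it was the highest. Its values were 2047 in Kcnj10 (chr1:172343685-172344185), 2894 near Amotl1 (chr9:14532224-14532724), 1763 near Tead1 (chr7:112663332-112663832) and 854 in Col8a1 (chr16:57740114-57740614). They were 3367 in Angpt1 (chr15:42554549-42555049), 766 in Pawr (chr10:108335056-108335556) and 849 at Irf2bpl (chr12:86879578-86880078). Replicate 4 was the highest near Tns3 (chr11:8674707-8675207), at 570.4. Replicate 1 was the lowest in Npas3 (chr12:53831930-53832430), at 45.0. The part of depth in these values was not tested.

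A peak near Nfib (chr4:82056644-82057144) was the only named member whose TNF libraries lay wholly below the untreated ones at 24 h and wholly above them at 72 h. Its log2 change with TNF was -0.23 at 24 h (adjusted p = 0.51 by limma) and 0.32 at 72 h (adjusted p = 0.278), and the change at 24 h minus that at 72 h was -0.55. The interaction of TNF with time had an unadjusted p of 0.038 and an adjusted p of 0.647 in the limma fit, so the difference between the times did not pass the threshold. Over the whole set, 15 members had opposite directions with libraries apart at both times. This was not counted over all peaks, so whether 15 is many for such a set cannot be said.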

How the results depend on the processing

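The number of peaks chosen was 3784 with a ratio of 3 and 1304 with a 24 h minimum of 100, and 2271 to 3031 with 1 library left out. With only the groups compared in the fit, 217 members fell from 24 h to 72 h with TNF, 472 were lower with TNF at 24 h, TNF raised 406 and lowered 626 at 72 h, 157 fell from 24 h to 72 h without TNF and 44 fell from 72 h to 1 week. From 72 h to 1 week, total-read scaling gave 834 higher and 108 lower, and edgeR and DESeq2 gave 47 and 35 lower. DESeq2 called 5 members in the interaction of TNF with time, a count not set beside that of all peaks. Peaks chosen without the 24 h libraries, an alternative added after seeing the data like the choices without the 72 h libraries or a replicate, gave 485 higher with TNF at 24 h. Gene-end shares were 1.39% within 500 bp and 5.51% within 2 kb, and 33 members were in or within 10 kb of a listed gene. With 1 library left out, members called higher and lower numbered 522 to 594 and 81 to 90 from 24 h to 72 h with TNF, 111 to 214 and 158 to 241 with TNF at 24 h, 154 to 178 and 268 to 318 with TNF at 72 h, 497 to 685 and 57 to 99 from 24 h to 72 h, and 1154 to 1319 and 10 to 19 from 72 h to 1 week. Apart from the effect of fewer samples, the cause of these shifts was not tested. The other 159 recomputed counts and shares stayed within 1.5 times those reported. Of single named peaks, 456 recomputed values kept their direction and their side of the threshold, but not every call of a named peak did. With total-read scaling, the peaks in Kcnj10 (chr1:172343685-172344185) and Runx2 (chr17:44624574-44625074) were no longer called higher from 72 h to 1 week.

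With the replicate number as a block, members called higher and lower numbered 702 and 123 from 24 h to 72 h with TNF, 190 and 291 with TNF at 24 h, 222 and 386 with TNF at 72 h, 699 and 91 from 24 h to 72 h, and 1335 and 13 from 72 h to 1 week, with 0 in the interaction. Same-numbered libraries had correlations of deviations from -0.04 to 0.11 and not every library correlated best with its own number, so the numbers were not taken as pairs. The 72 h TNF libraries are 1 to 3 in their titles but 2 to 4 in their library names. With the number of the library names as the block, added after seeing the data, members called higher and lower numbered 685 and 86, 187 and 298, 198 and 284, 712 and 94, and 1370 and 14 in the same order, with 0 in the interaction, and these libraries had correlations of 0.000408 to 0.0309 with others of the same name number. Counting error bears most on the members' NSP values, since the rule took peaks with few NSP reads, 21 to 30 in a library at the median member.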

Other observations

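Genes with several members differed in their course. Over the 5 members nearest to Adamtsl1, which encodes a secreted protein related to the ADAMTS proteases without their catalytic part, the median of the group means was 17.6 in NSPs, 148 at 24 h, 425 at 72 h and 295 at 1 week, so the highest level came at 72 h. Over the 6 nearest to Shroom3 it was 31.2, 173, 263 and 547 at these times, and over the 5 nearest to Nuak1 10.6, 98.5, 147 and 363, both highest at 1 week. With TNF the Shroom3 members had a median of 329 at 72 h, above the untreated 263, and the Adamtsl1 members one of 321, below the untreated 425. The 5 nearest to Lrp1b, a lipoprotein receptor relative, had medians of 116 and 67.0 without and with TNF at 24 h and of 113 and 87.7 at 72 h. These are medians over peaks near 1 gene, with no test, and which of these genes the peaks act on was not measured.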
